A study of Mus musculus with 12 samples.

Results

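The genes described are 10 transcription factors of the EGR, FOS, JUN and ATF3 families: Egr1, Egr2, Egr3, Fos, Fosb, Fosl2, Jun, Junb, Jund and Atf3. They were taken by symbol from the 37614 genes with exon counts. RNA was sequenced in 12 mouse libraries that form 4 groups of 3: MLL-ENL HSC, WT HSC, MLL-ENL preGM and WT preGM. MLL-ENL is a fusion of MLL and ENL found in acute leukaemia. The MLL-ENL cells came from the strain labelled Col1a1-MLL/ENL and the WT cells from the strain labelled C57bl/6 WT. HSC are haematopoietic stem cells, sorted as lineage-negative, Sca1-positive, Kit-positive, CD48-negative and CD150-positive. PreGM are committed myeloid precursors, sorted as lineage-negative, Sca1-negative and Kit-positive cells that lacked CD150, CD105, CD41 and CD16/32. Before RNA extraction every group, WT included, spent 48 h in culture with doxycycline (1 µg/ml), serum (10%) and the cytokines G-CSF and IL3 (5 ng/ml each) and SCF (10 to 50 ng/ml). No MLL-ENL cells without doxycycline were among the libraries, so the fusion and other differences between the strains cannot be told apart. Whether the 3 replicates of a group are separate animals or cultures is not stated, so each p-value reflects the spread among the sequenced libraries and that spread may be technical.

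Immediate early genes are transcribed within minutes of a signal, without new protein synthesis, and their messages are short-lived. Growth factor and cytokine receptors reach many of them through the ERK kinases, which act on serum response factor and its ternary complex partners at CArG boxes. EGR proteins are zinc finger factors that bind GC-rich sites. FOS proteins pair with JUN proteins to form AP-1, which binds TGA-TCA type sites, and ATF3 is a related factor known from the stress response. In blood cells Egr1 is known for keeping stem cells at rest and for monocyte differentiation, and Egr2 and AP-1 for differentiation along the monocyte line.

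The promoters of Fos and Junb are printed because these are the members whose difference between MLL-ENL and WT was not the same in HSC and preGM by the test given further on. Both are RefSeq sequences of build GRCm38.p6, from 250 bases before the annotated start to 30 bases after it, 5′ to 3′ on the gene's strand. They cover chr12:85473640-85473919 on the plus strand for Fos and chr8:84978719-84978998 on the minus strand for Junb, and capitals mark matches to TGACG and TATAAA.
Fos: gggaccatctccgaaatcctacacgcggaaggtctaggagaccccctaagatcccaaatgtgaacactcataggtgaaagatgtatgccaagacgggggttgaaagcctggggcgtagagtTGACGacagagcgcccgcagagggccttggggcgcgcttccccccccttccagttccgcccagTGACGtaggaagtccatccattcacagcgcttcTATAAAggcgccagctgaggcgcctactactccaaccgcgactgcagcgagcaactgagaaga
Junb: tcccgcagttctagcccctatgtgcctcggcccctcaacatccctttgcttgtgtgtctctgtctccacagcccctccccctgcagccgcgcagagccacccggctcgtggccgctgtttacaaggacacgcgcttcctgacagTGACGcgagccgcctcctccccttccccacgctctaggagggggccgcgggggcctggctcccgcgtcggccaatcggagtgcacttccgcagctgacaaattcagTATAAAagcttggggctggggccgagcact

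In the Fos window TGACG began at -129 and -66 and TATAAA at -33, counted from the annotated start. In the Junb window TGACG began at -106 and TATAAA at 1, because the RefSeq start lies upstream of the start of this gene in GENCODE M21. Both strands of 32851 RefSeq promoter windows of 300 bases were searched for 6 motifs. TGACG, which is also the first part of the cyclic AMP response motif TGACGTCA, was in 20.8% of all windows and in the promoters of 5 of the 8 members that had an entry. TATAAA was in 13.6% of all windows and in the promoters of 2 of those 8 members, Fos and Junb. TGACG and TATAAA were added to the search after these sequences had been read. The CArG box was in 1.63% of windows and in 1 member, Egr2. The EGR motif GCGNGGGCG was in 5.55% of windows and in 2 members, Fosb and Fosl2. The AP-1 motif TGANTCA, in 7.81% of windows, and the full TGACGTCA, in 1.79%, were in none of the 8. The shares are per window, while a member was counted if any of its windows matched, so the 2 are unlike measures. Egr2 had several windows, some of which overlap. A match is a run of letters only, and sites outside these windows were not searched.

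Exon counts per library ran between 18980508 and 23453508 in MLL-ENL HSC, 14529775 and 18158167 in WT HSC, 38466362 and 50326136 in MLL-ENL preGM, and 34741964 and 44493507 in WT preGM. The stem cell markers Slamf1, Procr and Mecom were called lower in WT preGM than in WT HSC and in MLL-ENL preGM than in MLL-ENL HSC, and all 9 granulocyte markers were called higher in WT preGM than in WT HSC. In MLL-ENL preGM against MLL-ENL HSC 6 of the 9 granulocyte markers were called higher and 1, Ltf, lower (log2 -3.90), while S100a9 and Camp did not pass. Within preGM, 2 libraries stood apart. WT preGM replicate 2 correlated with its 2 companions at r = 0.968 and 0.965, which correlated with each other at 0.991. MLL-ENL preGM replicate 1 correlated with its companions at 0.960 and 0.966, which correlated with each other at 0.989. No library pair agreed within sampling noise. Each preGM result below was also computed without both of these libraries, and the values are given where they differ in call or by over 1.5 times.

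Levels per transcript length, as RPKM (reads scaled to transcript length and library depth) in the authors' deposited files for the longest transcript of each gene, put Egr1 first of the 10 members in HSC of both strains. Egr1 stood at 19.5 ± 4.06 RPKM in MLL-ENL HSC and 3.01 ± 0.36 RPKM in WT HSC (SD, n = 3 each). Junb came second in MLL-ENL HSC at 5.51 ± 1.15 RPKM, and Jund came second in WT HSC at 2.73 ± 0.47 RPKM, where its range of 2.21 to 3.13 RPKM overlapped the 2.60 to 3.27 RPKM of Egr1. In MLL-ENL preGM no member exceeded a mean of 1 RPKM, with Junb at 0.918 ± 0.123 RPKM and Jund at 0.727 ± 0.212 RPKM, whose ranges overlapped. In WT preGM the first 3 were Fos at 1.22 ± 0.34 RPKM, Junb at 1.11 ± 0.30 RPKM and Jund at 0.984 ± 0.519 RPKM, and these also overlapped.

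Of the 10 members, 8 had enough counts to be tested. Egr3, a relative of Egr1 known from lymphocytes and muscle spindles, had 2 counts in all, both in WT preGM replicate 2. The Egr3 gene model in the files ends 2457 bases short of the GENCODE M21 end of the gene, so reads in that stretch were not counted. Fosb had 4 and 4 counts in MLL-ENL HSC replicates 1 and 3 and 12 counts in WT HSC replicate 3, and 0 counts in every other library. Atf3 passed the filter through preGM alone, and Egr2 through WT preGM replicates 2 and 3 and MLL-ENL HSC replicate 2. In WT HSC both had 0 counts in every library. If 3 counts are taken as the limit, this allows up to 0.136 to 0.185 CPM (counts scaled to library depth by the TMM method) in a library.

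**Figure D1:**
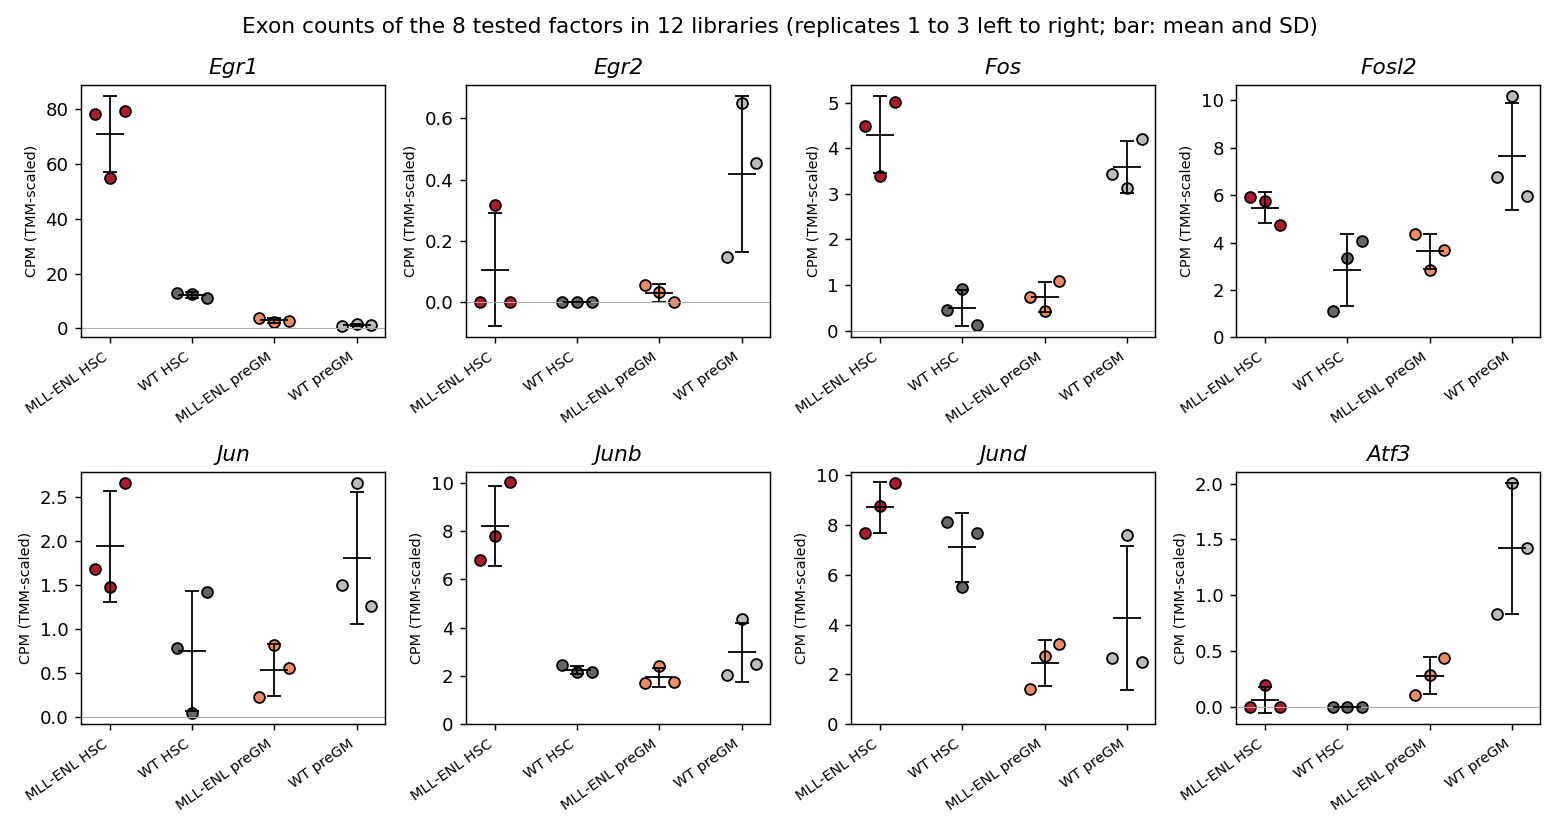
TMM-scaled exon CPM of the 8 tested factors, each point a library (replicates 1 to 3 left to right) and each bar the mean with its SD over 3 libraries; the vertical scales differ between panels. Egr1, Fos and Junb are higher in MLL-ENL HSC than in WT HSC without overlap, and Fos is lower in MLL-ENL preGM than in WT preGM without overlap.

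The first comparison asks how the stem cells of the MLL-ENL strain differ from those of WT after the culture. Egr1, Fos and Junb were higher in MLL-ENL HSC, by 5.82-fold, 8.41-fold and 3.63-fold, and no member was lower. These 3 of 8 tested members stand beside a background of 3.19% of 15711 tested genes called higher, 0.929% called lower and 4.12% called in either direction (edgeR quasi-likelihood test, Benjamini-Hochberg adjusted over all tested genes, two-sided, threshold 0.05). In bulk RNA, fewer cells expressing a gene and less of its RNA per cell cannot be told apart.

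Egr1, the founding EGR factor, had 78.3, 54.9 and 79.1 CPM in the MLL-ENL HSC libraries and 12.7, 12.7 and 11 CPM in the WT HSC libraries. Every MLL-ENL library was above every WT library, by more than the whole spread within either group. The log2 fold change was 2.54 ± 0.27 (SE, n = 3 each; adjusted p = 9.02e-05 by edgeR). Between 98.4% and 99.4% of Egr1 exon counts in each group lay in the last exon, which holds 56.2% of the exon bases, so these values rest on the 3′ part of the transcript. The gene lies at chr18:34859823-34864984 on the plus strand of GRCm38.

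Fos, the prototype FOS protein, had 4.49, 3.38 and 5.02 CPM in MLL-ENL HSC and 0.447, 0.906 and 0.123 CPM in WT HSC. The groups did not overlap, and the WT values rest on 8, 20 and 2 counts. The log2 fold change was 3.07 ± 0.55 (SE, n = 3 each; adjusted p = 0.00483 by edgeR). All 30 WT HSC counts lay in exon 4, the last exon, while the MLL-ENL HSC libraries had 23, 19 and 28 counts outside it. Fos lies at chr12:85473890-85477273.

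Junb, a JUN protein that pairs with FOS proteins, had 6.81, 7.80 and 10.0 CPM in MLL-ENL HSC and 2.46, 2.17 and 2.15 CPM in WT HSC. The groups did not overlap, and the WT values lay close together. The log2 fold change was 1.86 ± 0.36 (SE, n = 3 each; adjusted p = 0.00839 by edgeR). Junb is a single-exon gene at chr8:84974484-84978718 on the minus strand, and its model in the files ends 2425 bases short of the GENCODE M21 end. The calls of Egr1, Fos and Junb in HSC were kept under all 20 alternative settings run.

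The other members did not pass the test in HSC. Fosl2, the FOS relative also called Fra-2, had 5.92, 5.77 and 4.74 CPM in MLL-ENL HSC and 1.12, 3.35 and 4.06 CPM in WT HSC, at log2 0.95 ± 0.40 (SE) and an adjusted p of 0.218 by edgeR. Jun had 1.68, 1.47 and 2.65 CPM in MLL-ENL HSC and 0.782, 0.0453 and 1.42 CPM in WT HSC, at log2 1.40 ± 0.75 (SE) and an adjusted p of 0.341. The ranges of Fosl2 and Jun did not overlap, all MLL-ENL values being higher, which also held for 17.8% of tested genes. Jund, the most evenly expressed JUN protein, had 7.66, 8.76 and 9.69 CPM in MLL-ENL HSC and 8.10, 5.52 and 7.69 CPM in WT HSC, and these ranges overlapped (log2 0.29 ± 0.41, SE; adjusted p = 0.749 by edgeR). Egr2 had 0, 8 and 0 counts and Atf3 0, 5 and 0 counts in the MLL-ENL HSC libraries, against 0 counts in all WT HSC libraries, so both were seen in replicate 2 alone. In the files 7.28% of Jun exon bases and 18.9% of Jund exon bases are shared with another gene, and the counts carry no strand, so reads there cannot be told apart.

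Markers of stem cells and of other cell types, the share of intron counts, the mitochondrial share and the number of genes detected moved with this comparison, and their part in it was not tested. The stem cell markers Procr and Mecom were called higher in MLL-ENL HSC, by 3.21-fold and 2.73-fold (adjusted p = 0.00157 and 0.00244 by edgeR), while Slamf1 did not pass. The summed level of the 6 lymphoid markers was 0.141 to 0.380 CPM in MLL-ENL HSC and 2.45 to 4.25 CPM in WT HSC, with the 1 tested marker called lower, Rag1 and Cd3e at 0 in both groups, Dntt at 0 in MLL-ENL HSC and Cd79a at 0 in WT HSC. The summed level of the 6 stromal and endothelial markers was 7.63 to 9.99 CPM in MLL-ENL HSC and 2.63 to 3.53 CPM in WT HSC, with 1 of 2 tested markers called higher and Dcn and Lum at 0 in both groups. The summed level of the 8 megakaryocyte and erythroid markers was 148 to 189 CPM in MLL-ENL HSC and 609 to 757 CPM in WT HSC, with 3 of 8 called lower and none at 0. Intron counts per 100 exon counts were 4.81 to 5.97 in MLL-ENL HSC and 3.72 to 4.11 in WT HSC. The 9 granulocyte markers summed to 225 to 260 CPM in MLL-ENL HSC and 280 to 407 CPM in WT HSC, and the 9 monocyte and macrophage markers to 41.4 to 54.0 CPM in MLL-ENL HSC and 27.6 to 49.2 CPM in WT HSC. The 6 mast cell and basophil markers summed to 3.66 to 12.5 CPM in MLL-ENL HSC and 6.34 to 10.1 CPM in WT HSC, with 1 of 6, Fcer1a, called lower. Mitochondrial genes took 6.32% to 6.70% of exon counts in MLL-ENL HSC and 5.40% to 5.92% in WT HSC, and 18736 to 18819 genes were detected in MLL-ENL HSC against 16631 to 17211 in WT HSC.

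The second comparison sets MLL-ENL preGM against WT preGM. Egr1 was 2.40-fold higher and Fos fell to 0.209 times the WT level. These are 2 of 8 tested members, beside a background of 3.7% of tested genes called higher, 3.07% lower and 6.77% in either direction.

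Fos had 0.734, 0.422 and 1.08 CPM in MLL-ENL preGM and 3.43, 3.12 and 4.21 CPM in WT preGM. The groups did not overlap. The log2 fold change was -2.26 ± 0.51 (SE, n = 3 each; adjusted p = 0.0128 by edgeR), and the call was kept in all 20 alternatives. Counts outside the last exon were 7, 0 and 10 in MLL-ENL preGM and 26, 0 and 45 in WT preGM, so replicate 2 of both groups had exon 4 counts alone.

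**Figure D2:**
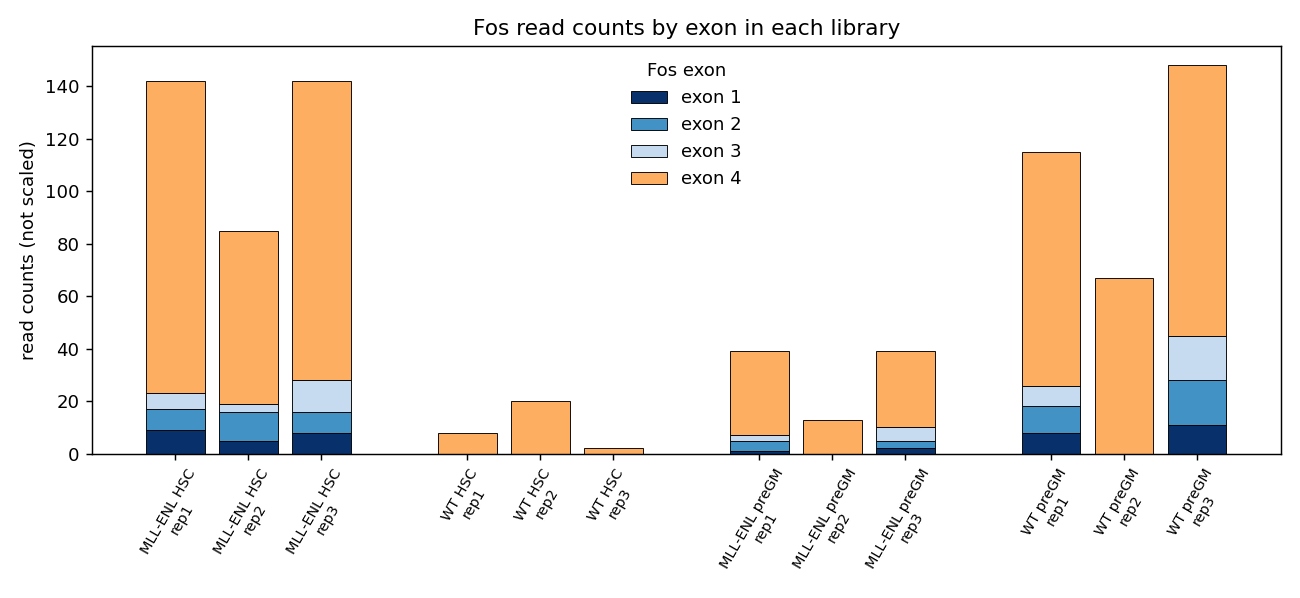
Fos read counts (not scaled for depth) by exon in each library, stacked from exon 1 at the bottom to exon 4 at the top. Exons 1 to 3 hold 23, 19 and 28 counts in MLL-ENL HSC and 0 in the 3 WT HSC libraries, which total 30 counts.

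Egr1 had 3.74, 2.18 and 2.84 CPM in MLL-ENL preGM and 0.925, 1.63 and 1.17 CPM in WT preGM, from 199, 67 and 103 counts against 31, 35 and 41 counts. The groups did not overlap, though 2.18 and 1.63 CPM are close. The log2 fold change was 1.26 ± 0.29 (SE, n = 3 each; adjusted p = 0.0131 by edgeR). The call was lost when the preGM groups were fitted alone (adjusted p = 0.0834), without WT preGM replicate 1 (0.0885) and without WT preGM replicate 3 (0.0534). Across the 4 groups the order of Egr1 levels was MLL-ENL HSC, WT HSC, MLL-ENL preGM and WT preGM, and no neighbours in that order overlapped. Of all tested genes, 17.8% were higher without overlap in MLL-ENL HSC than in WT HSC. For MLL-ENL preGM against WT preGM that share was 15.1%, and for WT HSC against MLL-ENL preGM it was not computed.

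The members that did not pass in preGM were these. Fosl2 had 4.35, 2.86 and 3.67 CPM in MLL-ENL preGM and 6.78, 10.2 and 5.95 CPM in WT preGM (log2 -1.07 ± 0.39, SE; adjusted p = 0.120 by edgeR and 0.0498 by DESeq2). Jun had 0.226, 0.812 and 0.552 CPM in MLL-ENL preGM and 1.49, 2.65 and 1.25 CPM in WT preGM (log2 -1.77 ± 0.74, SE; adjusted p = 0.166 by edgeR). The ranges of Fosl2 and Jun did not overlap, all MLL-ENL values being lower, which also held for 12.8% of tested genes. Without both libraries that stood apart, the log2 fold change of Jun was -1.01 (adjusted p = 0.655 by edgeR).

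Junb had 1.69, 2.40 and 1.74 CPM in MLL-ENL preGM and 2.06, 4.38 and 2.50 CPM in WT preGM, with overlap (log2 -0.61 ± 0.35, SE; adjusted p = 0.303 by edgeR). Jund had 1.43, 2.73 and 3.20 CPM in MLL-ENL preGM and 2.66, 7.59 and 2.50 CPM in WT preGM, where replicate 2 was high and the ranges overlapped (log2 -0.78 ± 0.42, SE; adjusted p = 0.272 by edgeR). Without both libraries that stood apart, the log2 fold change was -0.14 for Junb (adjusted p = 0.920 by edgeR) and 0.20 for Jund (adjusted p = 0.853), a change of sign for Jund.

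Egr2 and Atf3 had low counts in preGM. Egr2, a macrophage and Schwann cell EGR factor, had 3, 1 and 0 counts in MLL-ENL preGM and 5, 14 and 16 counts in WT preGM (adjusted p = 0.140 by edgeR). Atf3, a stress-induced partner of JUN proteins, had 6, 9 and 16 counts in MLL-ENL preGM and 28, 43 and 50 counts in WT preGM, or 0.113, 0.292 and 0.442 CPM and 0.836, 2.0 and 1.42 CPM (log2 -2.33 ± 0.93, SE; adjusted p = 0.156 by edgeR). Neither gene's ranges overlapped, with all MLL-ENL values lower. Atf3 entered the test through WT preGM, and Egr2 through WT preGM replicates 2 and 3 and MLL-ENL HSC replicate 2. No weight is therefore put on that direction.

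Markers of mature myeloid cells, stem cells, lymphoid cells and other lineages moved with the preGM comparison, and their part in it was not tested. The summed level of the 9 granulocyte markers was 10853 to 15282 CPM in MLL-ENL preGM and 26417 to 29163 CPM in WT preGM, with 8 of 9 called lower. The 9 monocyte and macrophage markers summed to 374 to 453 CPM in MLL-ENL preGM and 1073 to 1485 CPM in WT preGM, with 1 of 7 tested called lower. The 6 mast cell and basophil markers summed to 187 to 287 CPM in MLL-ENL preGM and 1571 to 2510 CPM in WT preGM, with 4 of 6 called lower. No marker of these 3 lists was at 0 in either preGM group. The stromal and endothelial markers summed to 1.52 to 2.04 CPM in MLL-ENL preGM and 0.0569 to 0.233 CPM in WT preGM, with 1 of 2 tested called higher, Col3a1, Dcn and Lum at 0 in both groups and Cdh5 at 0 in WT preGM. The 6 lymphoid markers summed to 2.75 to 5.49 CPM in MLL-ENL preGM and 1.25 to 1.67 CPM in WT preGM, with the 1 tested, Dntt, called 27.0-fold higher, Cd3e at 0 in both groups and Rag1 at 0 in MLL-ENL preGM. The stem cell markers Slamf1, Mecom and Procr were called higher in MLL-ENL preGM, by 9.15-fold, 13.0-fold and 2.39-fold, and Ly6a, which encodes Sca1, was called lower (log2 -1.81). The 8 megakaryocyte and erythroid markers summed to 85.3 to 95.3 CPM in MLL-ENL preGM and 61.0 to 142 CPM in WT preGM, with Itga2b called 4.04-fold higher, Pf4 and Hbb-bt called lower and none at 0.

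The difference between the HSC and preGM contrasts was tested directly, as preGM minus HSC. Fos and Junb passed, both with a lower value in preGM, which is 2 of 8 tested members beside a background of 2.06% of tested genes called lower, 1.08% higher and 3.13% in either direction. For Fos the log2 difference was -5.33 ± 0.75 (SE; adjusted p = 0.000811 by edgeR), with a higher level in all 3 MLL-ENL HSC libraries and a lower level in all 3 MLL-ENL preGM libraries than in any WT library of the same cell type. For Junb it was -2.47 ± 0.50 (SE; adjusted p = 0.0113 by edgeR), and the preGM part of it did not pass alone. Both calls were kept in all 19 alternatives that could be fitted.

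Egr1, which was called higher in MLL-ENL in both cell types, had a difference of -1.28 ± 0.39 on the log2 scale (SE; adjusted p = 0.0908 by edgeR). The threshold was met with DESeq2 (adjusted p = 0.0251), when MLL-ENL preGM replicate 1 was left out (0.0300 by edgeR) and when both libraries that stood apart were (0.0214). Fosl2 differed by -2.01 ± 0.56 (SE; adjusted p = 0.0668 by edgeR). It passed with DESeq2 (0.00970), with no count filter (0.0386) and without WT HSC replicate 3 (0.0409). Jun differed by -3.17 ± 1.05 (SE; adjusted p = 0.128 by edgeR and 0.0451 by DESeq2), and Jund by -1.08 ± 0.59 (SE; adjusted p = 0.394 by edgeR). No size is given for Egr2 and Atf3, whose fitted values depend on libraries with 0 counts; their adjusted p-values were 0.135 and 0.195 by edgeR.

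**Figure D3:**
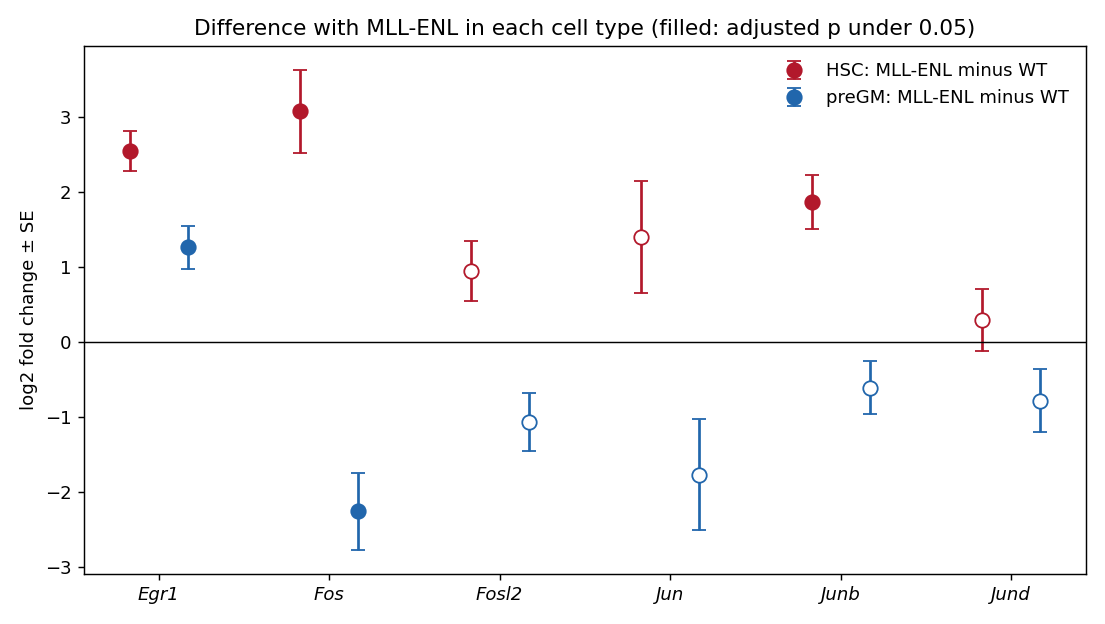
Log2 fold change with its SE for MLL-ENL against WT in HSC and in preGM (3 libraries a group), for the 6 tested members with counts in every group; filled points passed an adjusted p of 0.05. Egr1 is above 0 in both cell types, and Fos is at 3.07 in HSC and -2.26 in preGM.

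The comparisons between cell types within a strain share libraries with the ones above and are given for the levels they set side by side. In WT, Fos and Fosl2 were called higher in preGM than in HSC and Egr1 lower, among the 6 tested members with counts in every group, beside a background of 18.4% higher, 20.1% lower and 38.5% in either direction, so a call in this comparison was common among all genes. Fos differed by 2.81 ± 0.55 and Egr1 by -3.31 ± 0.30 on the log2 scale (SE, n = 3 each; adjusted p = 0.000859 and 4.60e-07 by edgeR). The ranges of Fos and Fosl2 did not overlap, which also held for 23.6% of tested genes, higher in WT preGM. Fosl2 differed by 1.42 ± 0.40 (SE; adjusted p = 0.0115 by edgeR), a call lost when scaled by library size alone (0.183) or with the WT groups fitted alone (0.0508). Atf3 passed the count filter through preGM alone, and Egr2 through WT preGM replicates 2 and 3 and MLL-ENL HSC replicate 2. No WT HSC library took part, so the filter favoured a higher value in WT preGM, and both genes are described with no test. Against the limit of 3 counts a library, on average 0.163 CPM in WT HSC, the mean WT preGM level of Atf3 was at least 8.73-fold higher. For the mean of Egr2 this bound was 2.57-fold, but it does not hold in each library. In WT preGM replicate 1 Egr2 had 5 counts, or 0.149 CPM, which is below that limit.

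Junb and Jund did not pass between WT preGM and WT HSC. Junb stood at 2.98 ± 1.23 CPM in WT preGM and 2.26 ± 0.17 CPM in WT HSC (SD, n = 3 each; log2 0.39, adjusted p = 0.417 by edgeR), with a negative sign of -0.35 when scaled by library size alone. Jund stood at 4.25 ± 2.89 CPM in WT preGM and 7.11 ± 1.38 CPM in WT HSC (SD, n = 3 each; log2 -0.75, adjusted p = 0.170 by edgeR). Without WT preGM replicate 2 the Jund difference was -1.45 and passed (adjusted p = 0.00765 by edgeR), as it did at -1.52 when scaled by library size alone (0.00445).

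In the MLL-ENL strain, Egr1, Fos, Junb and Jund were lower in preGM than in HSC, 4 of 8 tested members, beside a background of 21.1% lower, 20.4% higher and 41.5% in either direction. The log2 fold changes were -4.59 ± 0.30 for Egr1, -2.52 ± 0.51 for Fos, -2.08 ± 0.36 for Junb and -1.83 ± 0.43 for Jund (SE, n = 3 each; adjusted p = 2.50e-08, 0.00122, 0.000312 and 0.00313 by edgeR). The ranges of these 4 genes did not overlap, all MLL-ENL preGM values being lower, which also held for 28.9% of tested genes (54.8% had no overlap in either direction). All 4 calls were kept in all 20 alternatives. Jun was at the threshold, with a log2 fold change of -1.88 ± 0.74 (SE; adjusted p = 0.0523 by edgeR), and passed in 6 of 20 alternatives.

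Intron counts may come from unspliced RNA, though their origin was not tested. Of 9220 genes with enough of them, 1 was a member, Fosl2. Fosl2 had 48, 28 and 37 intron counts in MLL-ENL HSC and 9, 6 and 9 in WT HSC. All of these lay in intron 1 (10019 bases), with 0 in introns 2 and 3 (3344 and 2142 bases). Fosl2 had 6, 7 and 6 in MLL-ENL preGM and 13, 14 and 17 in WT preGM. Intron 1 held 4, 7 and 5 of them in MLL-ENL preGM and 10, 13 and 16 in WT preGM. In raw counts, which are not scaled for depth, neither pair of groups overlapped, and intron and exon counts leaned the same way in each cell type. The share of all genes without overlap in intron counts was not computed, so no weight is put on that. The intron log2 fold change was 1.34 ± 0.76 in HSC (SE; adjusted p = 0.425 by edgeR, with 1.33% of genes called) and -1.78 ± 0.80 in preGM (SE; adjusted p = 0.392, with 1.94% called). The difference, preGM minus HSC, was -3.12 ± 1.10 (SE; adjusted p = 0.216 by edgeR, with 0.781% called), so none of the 3 passed. Between MLL-ENL preGM and MLL-ENL HSC it was -2.11 ± 0.79 (SE; adjusted p = 0.0666 by edgeR, with 7.93% called higher, 9.14% lower and 17.1% in either direction), and between WT preGM and WT HSC 1.02 ± 0.77 (SE; adjusted p = 0.401, with 9.47% called higher, 9.66% lower and 19.1% in either direction). Egr1 had 6 intron counts in MLL-ENL HSC and 1 in WT HSC, and Fos had 3 and 0, too few to test; Jun, Junb and Jund had no intron that could be used.

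Other immediate early genes were taken as a list of 37, of which 31 were tested. In HSC 3 of the 31 were higher in MLL-ENL and 0 lower, beside 3.19% and 0.929% of all tested genes. They were Btg2, an antiproliferative factor, Nfkbia, the inhibitor of NF-κB, and Zfp36, which drives decay of AU-rich messages. Btg2 averaged 29.1 ± 4.22 CPM in MLL-ENL HSC and 10.8 ± 0.67 CPM in WT HSC (SD, n = 3 each; log2 1.43, adjusted p = 0.00154 by edgeR). Nfkbia averaged 162 ± 15.9 CPM in MLL-ENL HSC and 53.0 ± 15.1 CPM in WT HSC (SD, n = 3 each; log2 1.61, adjusted p = 0.00288 by edgeR). Zfp36 averaged 28.8 ± 2.97 CPM in MLL-ENL HSC and 12.4 ± 0.84 CPM in WT HSC (SD, n = 3 each; log2 1.22, adjusted p = 0.0293 by edgeR), and it did not pass when any of the 6 HSC libraries was left out (up to 0.105). The median of the 31 log2 fold changes was 0.55, with 25 above 0, against a median of 0.02 and 51.8% above 0 over all tested genes. Ier2, Nr4a1, Dusp1 and Myc had log2 fold changes of 0.68, 1.76, 1.25 and -0.38 and did not pass (adjusted p = 0.350, 0.0714, 0.0939 and 0.627 by edgeR). The count of 3 became 12 without both libraries that stood apart, 7 without MLL-ENL preGM replicate 1 alone, 10 with the HSC groups fitted alone, 10 with DESeq2, and 2 to 4 when a single HSC library was left out.

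In preGM 8 of the 31 were lower in MLL-ENL and 1 was higher, beside 3.07% and 3.7% of all tested genes. The 8 were Klf4, Klf6, Gadd45b, Rhob, Klf2, Id1, Nfkbia and Zfp36l1, and the 1 was Dusp6, a phosphatase that switches off ERK. Klf4, a factor of monocyte differentiation, averaged 0.428 ± 0.162 CPM in MLL-ENL preGM and 18.5 ± 6.32 CPM in WT preGM (SD, n = 3 each; log2 -5.45, adjusted p = 0.000295 by edgeR). Klf6 averaged 7.85 ± 0.62 CPM in MLL-ENL preGM and 27.5 ± 10.2 CPM in WT preGM (SD, n = 3 each; log2 -1.81, adjusted p = 0.00127 by edgeR). Gadd45b and Rhob had log2 fold changes of -1.58 and -1.44 (adjusted p = 0.00274 and 0.00480 by edgeR), and the calls of these 4 genes were kept in every alternative. Those of Klf2, Id1, Nfkbia and Zfp36l1 were each lost when at least 1 of the preGM libraries was left out. Dusp6 averaged 11.6 ± 10.2 CPM in MLL-ENL preGM and 3.45 ± 0.79 CPM in WT preGM (SD, n = 3 each), with a highest MLL-ENL library of 23.3 CPM, and leaving out MLL-ENL preGM replicate 1 ended its call (log2 0.73, adjusted p = 0.103 by edgeR). The median of the 31 was -0.51, with 22 below 0, against 0.08 over all tested genes. The count of 9 calls became 5 when MLL-ENL preGM replicate 1 was left out or either of WT preGM replicates 1 and 2, and 5 with the preGM groups fitted alone.

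The difference of the 2 contrasts was called for 9 of the 31, all with a lower value in preGM, beside 2.06% of all tested genes called lower. The 9 were Nfkbia, Btg2, Gadd45b, Klf2, Rhob, Klf6, Id1, Klf4 and Zfp36. Its median was -1.16, against 0.07 over all tested genes. Nfkbia at -2.65 ± 0.38 and Btg2 at -1.94 ± 0.31 on the log2 scale (SE; adjusted p = 0.000923 and 0.00212 by edgeR) were also, like Junb, called higher in MLL-ENL HSC than in WT HSC. Of the 31, 18 had a positive HSC value and a negative preGM value (58.1%), as did 18.6% of all tested genes. Among the members Fos, Junb, Fosl2, Jun and Jund had these signs, though Fosl2, Jun and Jund passed in neither cell type. Leaving out MLL-ENL HSC replicate 3 brought the count of 9 to 5, and leaving out WT preGM replicate 1 brought it to 6.

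**Figure D4:**
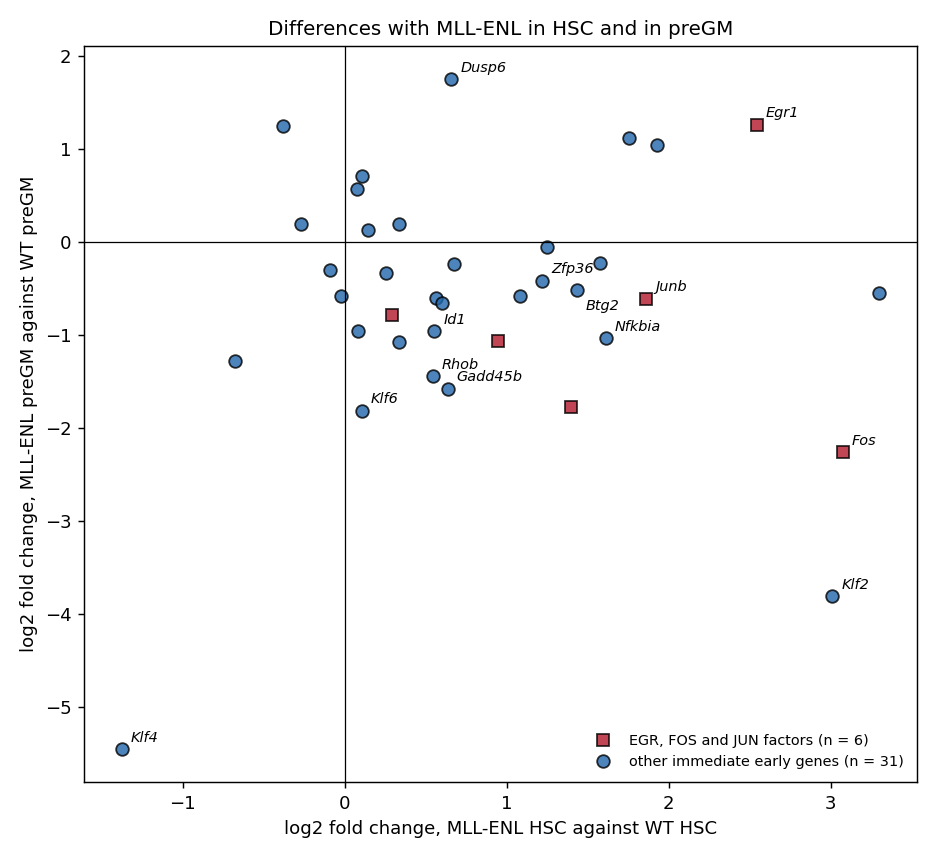
Log2 fold change of MLL-ENL against WT in HSC (horizontal) and in preGM (vertical) for 6 members (squares; Egr2 and Atf3 are left out because they had no counts in WT HSC) and 31 other immediate early genes (circles). Names mark the genes called for the difference of the contrasts, and Egr1 and Dusp6. Fos, Junb, Fosl2, Jun and Jund lie at the lower right with 18 of the 31 circles (18.6% of all tested genes fall there). Fosl2, Jun and Jund did not pass in either cell type. Egr1 lies at the upper right.

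The kinases and factors that act on these promoters were taken as a list of their own. Of 21 tested genes of the ERK, JNK and p38 kinases and of serum response factor and its partners, 0 were called in HSC by edgeR and 1 in preGM, beside 4.12% and 6.77% of all tested genes. In HSC 3 had an unadjusted p under 0.05, DESeq2 called 1 (Elk1, adjusted p = 0.0198), and 3 were called without both libraries that stood apart. The gene called in preGM was Srf, serum response factor itself, at 10.7 ± 2.33 CPM in MLL-ENL preGM and 22.1 ± 6.75 CPM in WT preGM (SD, n = 3 each; log2 -1.04 ± 0.27, SE; adjusted p = 0.0295 by edgeR). Srf was also the 1 gene of the list called for the difference of the contrasts, at -1.68 (adjusted p = 0.0232 by edgeR). Its preGM call was lost when a preGM library was left out, for WT replicate 1, WT replicate 2 and MLL-ENL replicate 1 (adjusted p = 0.0799, 0.119 and 0.0865 by edgeR). Its call for the difference was lost without WT HSC replicate 2 or 3, any MLL-ENL HSC library or WT preGM replicate 1. Medians of this list were 0.05 in HSC and 0.09 in preGM, against 0.02 and 0.08 over all tested genes.

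The other AP-1 and small MAF partners, among them Batf, Jdp2 and Maff, gave 0 calls of 10 by edgeR or DESeq2 with MLL-ENL in either cell type, with 2 at an unadjusted p under 0.05 in each. Nab2, an EGR corepressor and known EGR target, averaged 7.26 ± 0.48 CPM in MLL-ENL HSC and 5.36 ± 0.99 CPM in WT HSC (SD, n = 3 each; log2 0.44, adjusted p = 0.549 by edgeR). It averaged 1.25 ± 0.25 CPM in MLL-ENL preGM and 2.57 ± 1.32 CPM in WT preGM (SD, n = 3 each; log2 -1.03, adjusted p = 0.115 by edgeR and 0.0467 by DESeq2). Of 8 ATF4 stress genes, which include known activators and companions of Atf3, 3 were higher in MLL-ENL HSC. They were Trib3 at 9.27 ± 2.61 CPM in MLL-ENL HSC and 1.34 ± 0.79 CPM in WT HSC (SD, n = 3 each; log2 2.77, adjusted p = 0.00229 by edgeR), Chac1 (0.0490) and Ppp1r15a (0.0479). The calls of Chac1 and Ppp1r15a were lost in most alternatives that left out an HSC library. In preGM 0 of the 8 were called by edgeR and 1 by DESeq2, with 4 at an unadjusted p under 0.05, and Atf4 itself had log2 fold changes of -0.11 in HSC and -0.30 in preGM (adjusted p = 0.845 and 0.466 by edgeR).

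The genes whose levels ran most like each member were found by Pearson correlation of log2 CPM over the 12 libraries, among 8003 genes with a mean of at least 10 CPM. The libraries share 4 groups, so these values mainly compare group levels, and no p is given. Egr1 was closest to Ak1 (r = 0.989), Maged2 (0.981) and Tsc22d1 (0.980), all highest in MLL-ENL HSC and lowest in WT preGM. Junb was closest to Btg2 (0.956). Fos was closest to Id2 (0.878), Cd302 (0.869) and Id3 (0.864), inhibitors of helix-loop-helix factors in the case of Id2 and Id3. Id2 averaged 74.7 ± 7.52 CPM in MLL-ENL HSC, 23.8 ± 6.19 CPM in WT HSC, 16.8 ± 5.73 CPM in MLL-ENL preGM and 79.4 ± 10.5 CPM in WT preGM (SD, n = 3 each), so that, as for Fos, MLL-ENL HSC and WT preGM were the 2 high groups. Atf3 was closest to Cybb (0.964), Wfdc21 (0.963) and Lgals3 (0.962), which averaged 0.170, 0.670 and 0.747 CPM in WT HSC and were highest in WT preGM. Jund was closest to Cbfa2t3 (0.977), Jun to Itpripl2 (0.895), Fosl2 to Ube2s (0.872) and Egr2 to Saa3 (0.887).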

How the data were processed

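The tools named by the submitters' processing notes, with no role or order, are Bowtie2 2.1.0, TopHat2 2.0.8, edgeR and HTSeq; no genome build is named in the sources used here. Per the labels' protocols, total RNA (RNeasy micro) went into SMARTer universal low input libraries. Per the file headers, the authors deposited for each exon and intron of 93615 transcripts a read count and an RPKM value. Counts carry no strand. Transcripts were assigned to genes by identifier with GENCODE M21 (GRCm38), which matched 95.8% of them, and 2890 others by overlap.

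Gene counts were summed over non-overlapping exons, and intron counts over introns that overlap no exon. One fit of all 12 libraries (edgeR 4.0.16 in R 4.3.3, robust quasi-likelihood, TMM scaling, filter with a minimum count of 10) gave 5 contrasts without a replicate block, adjusted over 15711 exon or 9220 intron genes. The authors' deposited RPKM of each gene's longest transcript was used only to compare levels between genes. Alternatives used DESeq2 1.42.0, limma 3.58.1, scaling by library size, no filter, the longest transcript, only the groups compared, a replicate block and left-out libraries. With 3 libraries against 3, an exact permutation test cannot go below p = 0.1, so none was used.

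The members, 7 pathway lists and 7 marker lists were chosen with earlier results of these data known. All members are named; from each pathway list the text names the up to 6 called genes with the smallest adjusted p, a short fixed set with or without a call, and for likeness the 3 best-correlated genes of each member. Of the other immediate early genes every called one is named, those beyond the 6 chosen after their values were seen.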

Additional observations from a re-analysis of the deposited data

Results flagged for a closer look

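The difference between MLL-ENL and WT was itself tested between preGM and HSC (log2, preGM minus HSC, 3 libraries a group, edgeR, adjusted over all tested genes). It passed for 13 genes of the members and pathway lists, each with a lower value in preGM. The background was 2.06% of all tested genes called lower, 1.08% higher and 3.13% in either direction. Calls were 2 of 8 tested members and 9 of 31 other immediate early genes. They were 1 of 21 in the kinase and serum response factor list and 1 of 8 ATF4 stress genes. These lists were chosen with earlier results of these data known. Among the members the difference was -5.33 for Fos and -2.47 for Junb. In the other immediate early genes it was -6.81 for Klf2, -4.07 for Klf4, -2.65 for Nfkbia, -2.21 for Gadd45b, -1.99 for Rhob, -1.94 for Btg2, -1.92 for Klf6, -1.63 for Zfp36 and -1.51 for Id1. It was -1.68 for Srf and -2.41 for Trib3. Over 19 alternatives the Klf2 value ran from -10.7 to -5.52 and the Klf4 value from -6.11 to -3.46, so these 2 sizes are uncertain. The calls of Fos, Junb, Klf2, Nfkbia, Gadd45b, Rhob and Btg2 were kept in every alternative that could be fitted. The other 6 were lost when at least 1 of the libraries was left out. Of 19 alternatives, the call was kept in 5 for Klf4, 6 for Zfp36 and 11 for Trib3. It was kept in 13 for Srf, 16 for Klf6 and 17 for Id1.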

How the results depend on the processing

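For the 8 tested members, 40 differences were recomputed in 749 alternative values: 720 kept their side of the threshold, 9 lost the call, 20 gained it and no called value changed sign. The members called between MLL-ENL HSC and WT HSC were 3 in every alternative. Between MLL-ENL preGM and WT preGM they were 2, 1 to 2 when single libraries were left out and 3 with DESeq2. For the difference of the contrasts they were 2, 5 with DESeq2 and 2 to 3 when single libraries were left out. Between WT preGM and WT HSC they were 5. Of these, Atf3 entered through preGM counts alone and Egr2 through preGM counts and MLL-ENL HSC replicate 2. The count was 3 with the WT groups fitted alone, where Egr2 was not tested. On introns, MLL-ENL preGM against MLL-ENL HSC gave 0, and 1 with exon library sizes, 1 with those groups fitted alone and 0 to 1 with single libraries left out. Over all genes the HSC count of 647 ranged from 312 to 3369, the preGM count of 1064 from 566 to 1758 and the count for the difference, 492, from 299 to 1925. Intron counts of 123, 179 and 72 ranged from 44 to 248, 74 to 374 and 27 to 140. The cause was not tested.

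With a replicate block the members called were 3, 2, 2, 5 and 4 in the 5 contrasts, as without it. Without the block, the 5 between WT preGM and WT HSC included Atf3 and Egr2. Both passed the filter with no WT HSC library, so these 2 calls carry no weight. In that contrast 38.5% of all tested genes were called. Same-numbered libraries correlated at -0.104 to 0.1 after group means were removed, so the numbers were not read as pairs. Of the libraries, 3 of 6 preGM libraries of the MLL-ENL contrast and 0 of 6 in the others correlated best with their own number.

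Scaling by library size alone moved the median of all genes by 0.19 and 0.32 (log2) in HSC and preGM and by -0.70 and -0.56 between cell types in WT and MLL-ENL; the share of calls that were higher was then 87.9%, 74.9%, 16.2% and 18.1%, against 77.4%, 54.7%, 47.8% and 49.1%. In HSC that share was 66.3% with DESeq2 and 50.8% with the HSC groups fitted alone. Of 145 pathway gene differences, Elk4 changed sign with the longest transcript, at 0.47 for WT and 0.0046 for MLL-ENL preGM against HSC; 242 of 2878 values lost a call and 33 gained one. Fos, Jun, Egr2 and Atf3 rest on under 60 counts in some groups, where the depth sets wide errors.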

Other observations

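Of 6 genes that govern decay of AU-rich messages, the class to which many immediate early transcripts belong, Zfp36 was higher and Hnrnpd lower in MLL-ENL HSC. Hnrnpd averaged 105 ± 4.20 CPM in MLL-ENL HSC and 230 ± 15.3 CPM in WT HSC (SD, n = 3 each; log2 -1.14, adjusted p = 0.0454 by edgeR), and its call was lost when any HSC library was left out. In preGM Zfp36l2, a decay factor, was higher at 126 ± 28.8 CPM in MLL-ENL preGM against 68.3 ± 8.5 CPM in WT preGM (SD, n = 3 each; log2 0.89, adjusted p = 0.0409 by edgeR), and Zfp36l1 was lower at 2.65 ± 0.68 CPM against 6.41 ± 1.91 CPM (SD, n = 3 each; log2 -1.28, adjusted p = 0.0392 by edgeR). Both preGM calls were lost in most alternatives that left out a single preGM library, with adjusted p-values up to 0.169 for Zfp36l2 and 0.157 for Zfp36l1.

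Of 5 receptor genes for the cytokines in the culture, Il3ra, the IL3 receptor alpha chain, was higher in MLL-ENL HSC at 4.72 ± 3.01 CPM, against 0.601 ± 0.538 CPM in WT HSC (SD, n = 3 each; log2 2.93, adjusted p = 0.0323 by edgeR). That call was lost without MLL-ENL HSC replicate 2 (0.161), MLL-ENL HSC replicate 1 (0.0567), WT HSC replicate 1 (0.0789) or WT HSC replicate 3 (0.0839). Kit, the SCF receptor, and Csf3r, the G-CSF receptor, had log2 fold changes of 0.26 and 0.40 in HSC and 0.98 and 0.80 in preGM, and neither passed. Over 20 alternatives the preGM value ran from 0.15 to 1.42 for Kit, which passed in 1. For Csf3r it ran from -0.0068 to 1.23 and passed in 0. Csf2rb, the shared beta chain, had -0.83 in HSC and -0.65 in preGM and passed in both without MLL-ENL preGM replicate 1 (adjusted p = 0.00811 and 0.00393 by edgeR).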
